A study of Mus musculus with 20 samples.

Results

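Polycomb repressive complex 2 (PRC2) is the histone methyltransferase complex that GSK343 is directed against, and the transcripts of its subunits are described here in subcutaneous mouse tumors. The subunits were taken by gene symbol from a list of 10 genes, and 9 of them were among the 14633 genes of the deposited expression table (Ezh2, Ezh1, Eed, Suz12, Jarid2, Aebp2, Mtf2, Phf1 and Rbbp7); Phf19 was not analysed here. The tumors came from HEPA1-6, an established mouse hepatoma cell line, implanted under the skin of C57/BL6 mice and left to grow for 4 weeks, and poly-A RNA was sequenced. The tumors fell into 4 groups, namely an antibody against the chemokine CXCL10 together with the EZH2 inhibitor GSK343 (n = 5 libraries), the anti-CXCL10 antibody without GSK343 (n = 5), a control antibody together with GSK343 (n = 5), and the control antibody without GSK343 (n = 4). The labels name 20 tumors, of which 19 had a column, and replicate 4 of the control antibody group was not analysed here. All tumors carry the same cell line in the same host strain and all received an antibody, so no group is untreated. The labels do not say whether each tumor came from a separate animal, and the design text speaks of 3 replicates where the labels number 5, so p-values speak only of the spread among these libraries, part of which may be technical. RNA was taken from whole tumors, in which fewer cells of a type and less RNA per cell cannot be told apart.

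PRC2 places the repressive trimethyl mark on lysine 27 of histone H3, which keeps developmental and lineage genes silent. Its core holds a catalytic subunit, Ezh2 or the paralog Ezh1, with Eed, which binds the finished mark and stimulates the enzyme, Suz12, the scaffold on which the other subunits assemble, and a histone-binding protein, Rbbp7 or Rbbp4. Accessory subunits divide the complex into 2 forms: PRC2.1 carries one of the Polycomb-like proteins Phf1, Mtf2 or Phf19, and PRC2.2 carries Jarid2 and Aebp2. Ezh2 is known for high expression in dividing cells and in liver cancer, and Ezh1 for its expression in resting tissue. GSK343 competes with the methyl donor in the active site of the enzyme, so it acts on the protein and not directly on these transcripts.

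The promoters of the paired catalytic genes are shown because their transcripts are set side by side throughout. The sequences are those of RefSeq on build GRCm38.p6, from 250 bases before to 50 bases after the annotated start, printed 5′ to 3′ on the strand of the gene, with capitals for each searched word on either strand. The words were CCAAT (the CCAAT box, ATTGG when on the other strand) and the E2F words TTTCCCGC, TTTCGCGC, TTTGCCGC and TTTGGCGC; E2F factors drive cell cycle genes.
Ezh2 promoter, chr6:47594981-47595280, minus strand: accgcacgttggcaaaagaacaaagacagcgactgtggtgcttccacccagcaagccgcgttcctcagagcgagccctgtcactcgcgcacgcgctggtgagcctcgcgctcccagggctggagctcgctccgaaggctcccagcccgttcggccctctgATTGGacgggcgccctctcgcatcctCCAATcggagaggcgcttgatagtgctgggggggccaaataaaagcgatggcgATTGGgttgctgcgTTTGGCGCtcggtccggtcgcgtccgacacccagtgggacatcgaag
Ezh1 promoter, chr11:101226414-101226713, minus strand: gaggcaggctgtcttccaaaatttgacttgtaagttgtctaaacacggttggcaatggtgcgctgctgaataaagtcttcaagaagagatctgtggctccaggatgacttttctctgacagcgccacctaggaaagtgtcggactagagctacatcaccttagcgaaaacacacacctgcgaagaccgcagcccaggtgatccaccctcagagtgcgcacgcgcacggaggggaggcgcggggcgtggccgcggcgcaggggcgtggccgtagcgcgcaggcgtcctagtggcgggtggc
The Ezh2 window held 1 E2F word, at bases 254 to 261 just past the start annotated by RefSeq, and 3 CCAAT words. The Ezh1 window held none of these letters, which says nothing of whether a factor binds there. Among all 32851 promoters of the same length, 2.26% held an E2F word and 37.4% held CCAAT. Of the 13 promoter entries of the 9 measured subunit genes, 2 held an E2F word (those of Ezh2 and Suz12) and 8 held CCAAT. In the deposited values Ezh2 starts at base 47595341 on the minus strand, so its printed window lies inside that span and not before it.

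Values are FPKM, fragments scaled to gene length and to the library's mapped total, so levels of different genes can be compared. All 9 subunits were measured in every library and all 9 passed the filter on low values, which asked for at least 1 FPKM in at least 5 libraries. The histone-binding subunit Rbbp7 was the most abundant, with a median of 121 FPKM over the 19 libraries (88.1 to 170.2), a level above that of 95% of the genes tested. Ezh2 followed with a median of 26.5 FPKM (21.7 to 31.9), then Suz12 with 23.3 (6.43 to 28.8), Aebp2 with 23.1 (17.9 to 47.7) and Eed with 22 (19.8 to 24.5). Ezh1 had a median of 12.2 FPKM (9.64 to 14.1), Mtf2 10.8 (7.09 to 12.7), Phf1 9.38 (7.52 to 12.5) and Jarid2 4.14 (3.22 to 8.38).

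**Figure D1:**
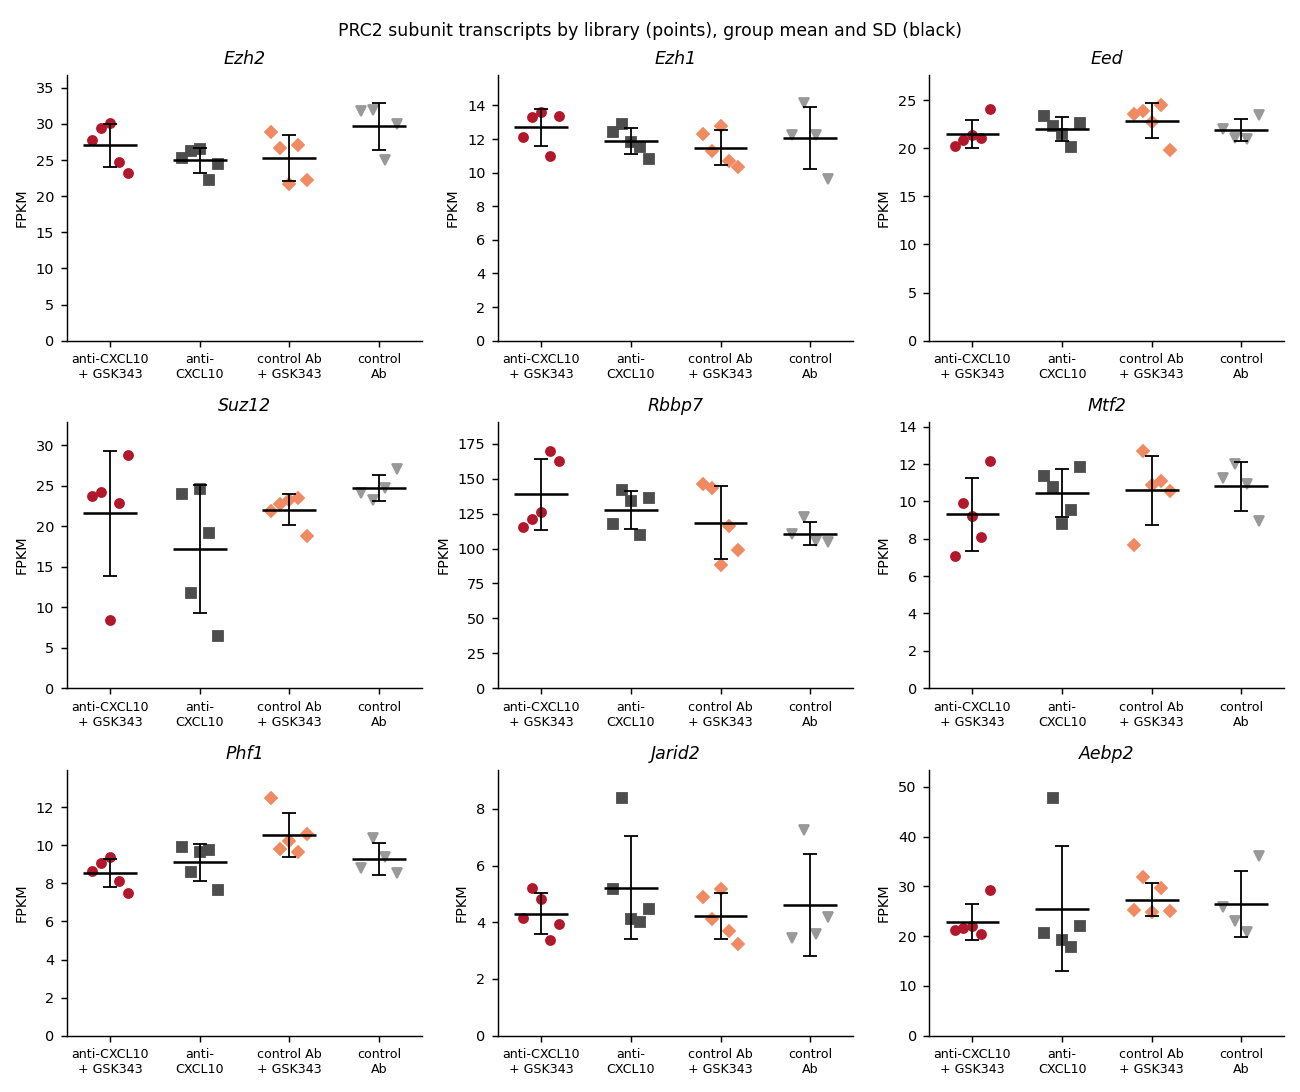
FPKM of each PRC2 subunit (vertical axes, from 0) in each library (points), with the group mean and SD as black bars, for anti-CXCL10 plus GSK343, anti-CXCL10, control antibody plus GSK343 and control antibody from left to right. Most panels show groups that overlap widely, and Suz12, Jarid2 and Aebp2 show single libraries far from the rest of their group, such as Suz12 at 6.43 FPKM with anti-CXCL10.

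Some steps of this order held in every library and others did not. Rbbp7 exceeded Ezh2 in 19 of 19 libraries, by a median of 4.46 times, and the ranges did not overlap. Eed exceeded Ezh1 in 19 of 19, by a median of 1.80 times, again without overlap of the ranges. Phf1 exceeded Jarid2 in 19 of 19, by a median of 2.08 times. The neighbours in between were not separated beyond their spread: Ezh2 exceeded Suz12 in 17 of 19 libraries, Aebp2 exceeded Eed in 13, Suz12 exceeded Aebp2 in 8, Ezh1 exceeded Mtf2 in 15 and Mtf2 exceeded Phf1 in 14. The middle of the order, from Ezh2 to Eed, is therefore a band of like levels. Of the PRC2.2 pair, Aebp2 lay within that band and Jarid2 at the low end of the order. Aebp2 was 3.19 to 8.63 times as high as Jarid2 in the same library (median 5.15).

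The subunits also differed in how steady they were. Eed had a coefficient of variation of 6.52% over the 19 libraries, lower than that of all but 1.02% of the genes tested, and its highest library was 1.24 times its lowest. Ezh1 varied by 9.95%, Ezh2 by 11.8%, Phf1 by 12.3%, Mtf2 by 15.7% and Rbbp7 by 17.2%. Suz12 (28.2%), Aebp2 (27.9%) and Jarid2 (28.5%) varied most, at percentiles 71.9, 71.4 and 72.3 of the genes tested. These coefficients span all groups and include any effect of treatment.

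Between the catalytic subunits, Ezh2 was the more abundant in 19 of 19 libraries. The ratio of Ezh2 to Ezh1 averaged 2.14 ± 0.227 with anti-CXCL10 plus GSK343, 2.1 ± 0.143 with anti-CXCL10, 2.22 ± 0.323 with control antibody plus GSK343 and 2.50 ± 0.465 with control antibody (SD). Single libraries ran from 1.70 with control antibody plus GSK343 to 3.10 with control antibody, and the 4 groups overlapped.

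The comparison of GSK343 plus control antibody with control antibody asks whether the transcripts of the complex changed when an inhibitor of its enzyme was given. Whether the enzyme was inhibited in these tumors was not measured here. None of the 9 subunits passed the threshold in limma (Benjamini-Hochberg adjusted p under 0.05 over 14385 genes), and 1 had an unadjusted p under 0.05. Over all genes tested, 5.47% passed (4.36% higher and 1.11% lower with GSK343) and 18.9% had an unadjusted p under 0.05. The median change of the 9 subunits was -0.03, and that of all genes was also -0.03. Changes are differences of log2(FPKM + 1), given ± SE, and are understated for low genes.

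The subunit with the unadjusted p under 0.05 was Ezh2 (chromosome 6, 47530274 to 47595341, minus strand, GRCm38), the catalytic subunit and the target of the drug. Ezh2 had 28.8, 26.7, 21.7, 27.1 and 22.2 FPKM in the 5 libraries with control antibody plus GSK343, against 31.8, 31.9, 25 and 29.9 FPKM in the 4 with control antibody. Each treated library lay below the control mean, but the groups overlapped, since control antibody replicate 3 lay below 3 of the treated libraries. The means were 25.3 ± 3.17 FPKM with control antibody plus GSK343 and 29.7 ± 3.24 with control antibody, a difference of -0.22 ± 0.10 (95% interval -0.44 to -0.01) that did not pass (limma adjusted p = 0.244). Without replicates 3, 4 and 5 of control antibody plus GSK343, the libraries highest in skeletal muscle markers, the difference was -0.09 ± 0.12. That fit kept only replicates 1 and 2 of the group. The libraries left out included those with its lowest Ezh2 values (21.7 and 22.2 FPKM).

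The other catalytic subunit, Ezh1 (chromosome 11, 101191115 to 101226463, minus strand), had 12.3, 11.3, 12.8, 10.7 and 10.4 FPKM with control antibody plus GSK343, against 12.2, 14.1, 12.3 and 9.64 FPKM with control antibody. The control libraries alone spanned all the treated ones. The difference was -0.06 ± 0.10 (95% interval -0.27 to 0.15, limma adjusted p = 0.808). Eed (chromosome 7, 89954656 to 89980983, minus strand) averaged 22.9 ± 1.82 FPKM with control antibody plus GSK343 and 21.9 ± 1.13 with control antibody, a difference of 0.06 ± 0.07. Its interval of -0.09 to 0.21 was the narrowest of the subunits. Eed shares 261 bases with the antisense gene E230029C05Rik, which was not analysed here, and reads of both cannot be told apart without strand. Suz12 (chromosome 11, 79993106 to 80034123, plus strand) averaged 22 ± 1.93 FPKM with control antibody plus GSK343 and 24.7 ± 1.63 with control antibody, a difference of -0.16 ± 0.33. All 5 values with GSK343 were lower than the control mean, but the highest (23.5 FPKM) exceeded the lowest control (23.2 FPKM). The SE rests on the spread of all groups, including anti-CXCL10 libraries down to 6.43 FPKM. When only the compared groups were fitted, Suz12 did not pass either (limma adjusted p = 0.378). Rbbp7 (X chromosome, 162760402 to 162779092, plus strand) averaged 119 ± 26.0 FPKM with control antibody plus GSK343 and 111 ± 8.32 with control antibody, a difference of 0.07 ± 0.15 that came to 0.39 without replicates 3, 4 and 5 of control antibody plus GSK343. Rbbp7 overlaps Txlng in the deposited table and shares 942 aligned bases at 97.1% identity with the processed pseudogene Gm6382, listed at a mean of 3.54 FPKM, so part of its fragments may be misassigned.

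Among the accessory subunits, Phf1 (chromosome 17, 26933127 to 26937890, plus strand), a Polycomb-like protein of PRC2.1 whose Tudor domain binds a methyl mark of histone H3, had the largest positive difference. It had 12.5, 9.81, 10.2, 9.64 and 10.6 FPKM with control antibody plus GSK343, against 8.79, 10.4, 9.38 and 8.53 FPKM with control antibody. Each of the 5 treated values exceeded the control mean, but 1 control library exceeded 3 of them. The difference was 0.17 ± 0.09 (limma adjusted p = 0.367). Mtf2 (chromosome 5, 108065674 to 108109004, plus strand), the other measured Polycomb-like protein, which binds CpG-rich DNA, differed by -0.03 ± 0.14; it overlaps Tmed5, with which it shares 396 identical bases. In PRC2.2, Jarid2 (chromosome 13, 44729474 to 44921643, plus strand), which helps to recruit the complex and stimulates it, differed by -0.07 ± 0.20. Aebp2 (chromosome 6, 140622449 to 140678472, plus strand), a zinc finger protein of PRC2.2, differed by 0.07 ± 0.22.

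**Figure D2:**
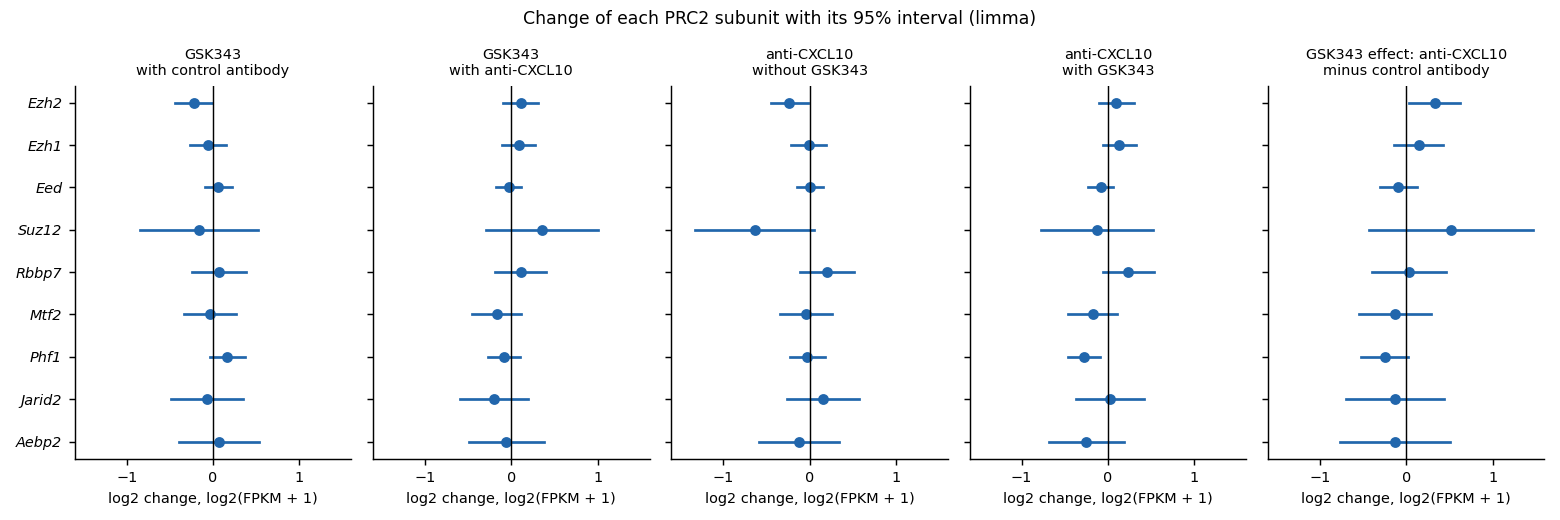
Change of each PRC2 subunit on the log2(FPKM + 1) scale (horizontal axis) with its 95% interval from limma, in the 4 treatment comparisons and for the difference between the GSK343 changes (right panel). The interval of Ezh2 leaves out 0 in 3 panels and that of Phf1 in 1, none of them past the adjusted threshold, and the intervals of Suz12 are the widest. The 3 Ezh2 panels share the same 4 control antibody libraries, so they are not separate observations.

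Markers of other cells moved with GSK343 in the same comparison, and apart from skeletal muscle their part in the values above was not tested. With the skeletal muscle score as a covariate, the Ezh2 difference was -0.18 ± 0.12 (limma adjusted p = 0.675) and the Suz12 difference was -0.38. Of 16 T cell markers 13 rose (median change 1.02), and the mean log2 level of the list was 2.76 to 4.04 in libraries with control antibody plus GSK343 and 2.04 to 2.58 with control antibody. Of 17 skeletal muscle markers 1 passed, but 17 changed upward and 15 had an unadjusted p under 0.05 in limma. Their median change was 2.42, with library scores of 2.26 to 6.86 with control antibody plus GSK343 and 1.57 to 2.90 with control antibody. Macrophage markers rose in 7 of 10, with scores of 5.46 to 5.70 with control antibody plus GSK343 and 4.29 to 5.23 with control antibody. B and plasma cell markers rose in 4 of 4, with scores of 3.93 to 5.38 with control antibody plus GSK343 and 1.06 to 3.66 with control antibody. No endothelial (9), fibroblast (10) or keratinocyte (9) marker passed, with 1, 2 and 0 at an unadjusted p under 0.05 in limma. Of the T cell, macrophage and hepatocyte markers, only Apoh was at 0 in a library of these 2 groups, while Pvalb (muscle) and Mzb1 (plasma cell) were at 0 in some control antibody libraries. Of 21 hepatocyte markers, the defining ones of the tumor line, 4 fell and 0 rose (median -0.61), with scores of 3.98 to 4.74 with control antibody plus GSK343 and 4.47 to 5.74 with control antibody. Albumin (Alb) still had 2216 ± 243 FPKM with control antibody plus GSK343 and 3004 ± 256 with control antibody, and alpha-fetoprotein (Afp), the fetal liver protein of hepatomas, had 1736 ± 302 FPKM with control antibody plus GSK343 and 2282 ± 291 with control antibody. The defining transcripts of the labelled hepatoma line were thus abundant in both groups. The library score of 28 mitosis and replication genes was 4.39 to 4.66 with control antibody plus GSK343 and 4.44 to 4.65 with control antibody, and 0 of the 28 genes passed (0 also at an unadjusted p under 0.05 in limma). In the other comparisons 0 of the 28 passed as well, but their signs were less even. With anti-CXCL10, GSK343 gave 28 positive changes (median 0.19, 8 at an unadjusted p under 0.05 in limma). The interaction had 25 positive (median 0.23), and anti-CXCL10 without GSK343 had 23 negative (median -0.17). For anti-CXCL10 with GSK343, 19 were positive (median 0.05). The part of these genes in the Ezh2 values was not tested.

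With the anti-CXCL10 antibody, the addition of GSK343 gave no call among the 9 subunits in limma, and 0 had an unadjusted p under 0.05. Of all genes 0% passed and 2.91% had an unadjusted p under 0.05. Ezh2 had 27.8, 29.4, 30.2, 24.7 and 23.3 FPKM with anti-CXCL10 plus GSK343, against 25.3, 26.3, 26.5, 22.3 and 24.5 FPKM with anti-CXCL10. The 3 highest libraries were treated ones, while the other treated libraries fell within the range of anti-CXCL10 alone. The difference was 0.11 ± 0.10 (95% interval -0.09 to 0.31). Suz12 had the largest difference, 0.35 ± 0.31, which came to 0.07 ± 0.26 without replicate 5 of anti-CXCL10 and to 0.64 ± 0.26 without replicate 3 of anti-CXCL10 plus GSK343. Jarid2 differed by -0.20 ± 0.19, Mtf2 by -0.17 ± 0.14, Rbbp7 by 0.11 ± 0.14, Ezh1 by 0.09 ± 0.09 and Phf1 by -0.08 ± 0.09. Aebp2 differed by -0.06 ± 0.21 and Eed by -0.03 ± 0.07. Without replicate 2 of anti-CXCL10 the difference was -0.04 for Jarid2 and turned to 0.19 for Aebp2.

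The difference between both GSK343 changes, the interaction, had 0 of 9 subunits past the threshold in limma and 1 with an unadjusted p under 0.05, where 0.0626% of all genes passed and 12.9% had an unadjusted p under 0.05. That 1 was Ezh2, whose GSK343 change was higher by 0.33 ± 0.14 with anti-CXCL10 than with control antibody (95% interval 0.04 to 0.63, limma adjusted p = 0.320). Without replicates 3, 4 and 5 of control antibody plus GSK343, this difference was 0.19 ± 0.15. Phf1 had the opposite sign, -0.25 ± 0.13 (adjusted p = 0.448), and Suz12 had 0.52 ± 0.45 (adjusted p = 0.698), which came to 0.23 without replicate 5 of anti-CXCL10. The 6 other subunits lay between -0.13 (Mtf2) and 0.15 (Ezh1).

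The anti-CXCL10 antibody was next set against the control antibody without GSK343, where 0 of 9 subunits passed in limma, 1 had an unadjusted p under 0.05, and 0.0139% of all genes passed with 6.81% at an unadjusted p under 0.05. Ezh2 averaged 25 ± 1.69 FPKM with anti-CXCL10 and 29.7 ± 3.24 with control antibody. Every anti-CXCL10 library lay below the control mean, and 3 of the 4 control libraries lay above every anti-CXCL10 one. The difference was -0.24 ± 0.10 (95% interval -0.45 to -0.02, limma adjusted p = 0.7). The control libraries here also enter the GSK343 comparison with control antibody and the interaction above. All 3 Ezh2 values therefore rest in part on the same 4 tumors.

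Suz12 had the largest difference in that comparison and the widest spread. It had 23.9, 11.8, 24.6, 19.2 and 6.43 FPKM with anti-CXCL10, against 24.0, 23.2, 24.7 and 27 FPKM with control antibody. Of the anti-CXCL10 libraries, 2 lay within the range of the controls, and the other 3 lay below all of them. The difference was -0.64 ± 0.33 (95% interval -1.33 to 0.05, limma adjusted p = 0.737), and it was -0.35 ± 0.28 without replicate 5 of anti-CXCL10. Rbbp7 was higher with anti-CXCL10 by 0.20 ± 0.15 (128 ± 13.6 FPKM against 111 ± 8.32 with control antibody), which did not pass. Jarid2 differed by 0.15 ± 0.20 and Aebp2 by -0.12 ± 0.22. Without replicate 2 of anti-CXCL10, where both were highest, the differences were near 0 for Jarid2 (-0.0037) and -0.37 for Aebp2. Ezh1, Eed, Mtf2 and Phf1 differed by at most 0.04 in size.

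Between the groups that both received GSK343, anti-CXCL10 against control antibody, 0 of 9 subunits passed and 1 had an unadjusted p under 0.05 in limma, while 10.1% of all genes passed (3.48% higher and 6.64% lower with anti-CXCL10) and 25.7% had an unadjusted p under 0.05. The 1 was Phf1, with 8.64, 9.08, 9.37, 8.11 and 7.52 FPKM with anti-CXCL10 plus GSK343, against 12.5, 9.81, 10.2, 9.64 and 10.6 FPKM with control antibody plus GSK343. Every library of the first group lay below every library of the second. The share of all genes whose groups were separated in this way was not counted. The means were 8.54 ± 0.744 FPKM with anti-CXCL10 plus GSK343 and 10.5 ± 1.14 with control antibody plus GSK343, a difference of -0.27 ± 0.09 (95% interval -0.46 to -0.09). Its limma adjusted p of 0.0584 lay just outside the threshold, and it was 0.0476 without replicate 5 of anti-CXCL10, a library of neither group that bears on the shared spread. Phf1 also passed with median-ratio scaling (-0.29 ± 0.09, adjusted p = 0.0475), and over all alternatives its adjusted p ran from 0.0475 to 0.221.

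The remaining subunits did not separate these groups. Rbbp7 had 115, 121, 126, 170.2 and 163 FPKM with anti-CXCL10 plus GSK343, against 146, 143, 88.1, 116 and 98.8 FPKM with control antibody plus GSK343. The libraries of both groups were interleaved, although the lowest 2 belonged to control antibody plus GSK343 and the highest 2 to anti-CXCL10 plus GSK343. The difference was 0.24 ± 0.14 (limma adjusted p = 0.302), and it turned to -0.08 without replicates 3, 4 and 5 of control antibody plus GSK343. Aebp2 differed by -0.25 ± 0.21, Mtf2 by -0.17 ± 0.14, Ezh1 by 0.13 ± 0.09, Suz12 by -0.12 ± 0.31 and Ezh2 by 0.10 ± 0.10. The Suz12 difference turned to 0.17 without replicate 3 of anti-CXCL10 plus GSK343. Markers of other cells moved here as well: 12 of 16 T cell markers fell with anti-CXCL10 plus GSK343 relative to control antibody plus GSK343, and 6 of 21 hepatocyte markers rose. The T cell scores were 2.35 to 2.74 with anti-CXCL10 plus GSK343 and 2.76 to 4.04 with control antibody plus GSK343. The hepatocyte scores were 4.65 to 5.58 with anti-CXCL10 plus GSK343 and 3.98 to 4.74 with control antibody plus GSK343. Of the skeletal muscle markers 1 of 17 fell, with a median difference of -2.51, 16 of 17 at an unadjusted p under 0.05, and scores of 1.32 to 2.99 with anti-CXCL10 plus GSK343 and 2.26 to 6.86 with control antibody plus GSK343. Of macrophage markers 6 of 10 fell, of B and plasma cell markers 4 of 4 and of fibroblast markers 4 of 10. With the skeletal muscle score as a covariate, the Phf1 difference was -0.27 ± 0.11 (limma adjusted p = 0.221). The part of the other marker lists in the Phf1 value was not tested.

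Single libraries, rather than groups, carried the largest departures of Suz12, Aebp2 and Jarid2. Suz12, whose other values were 18.8 FPKM or more, had 8.41 FPKM in replicate 3 of anti-CXCL10 plus GSK343, and 11.8 and 6.43 FPKM in replicates 2 and 5 of anti-CXCL10. The remaining libraries of those groups had 22.9 to 28.8 FPKM with anti-CXCL10 plus GSK343 and 19.2 to 24.6 FPKM with anti-CXCL10. In 2 of these 3 libraries the level was below 0.5 times the median of all libraries. Such departures were uncommon but not confined to Suz12: of 6856 genes with a median of at least 10 FPKM, 3.75% were below 0.5 times their median in 2 or more libraries. The other core subunits did not follow Suz12 in these libraries. In replicate 5 of anti-CXCL10, where Suz12 was lowest, Ezh2 had 24.5 FPKM, Eed 22.7 and Rbbp7 136.

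**Figure D3:**
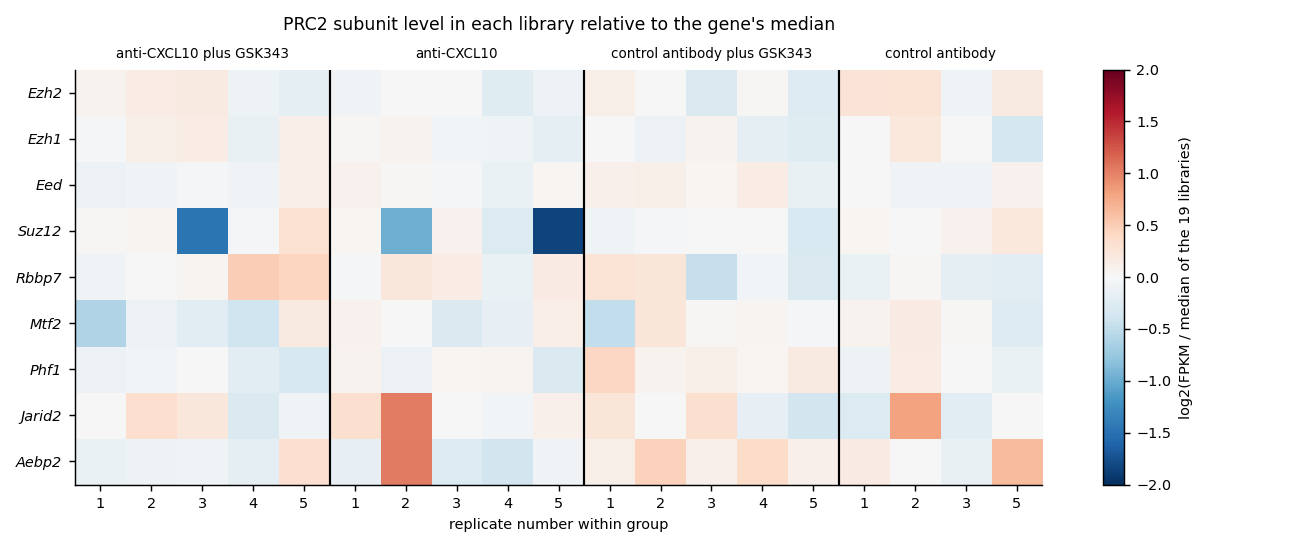
Level of each PRC2 subunit (rows) in each of the 19 libraries (columns, by group and replicate) as log2 of FPKM over the median of all libraries, blue for lower and red for higher. Suz12 is dark blue in replicate 3 of anti-CXCL10 plus GSK343 and replicates 2 and 5 of anti-CXCL10, and Jarid2 and Aebp2 are red together in replicate 2 of anti-CXCL10 while the Eed row is nearly blank.

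The PRC2.2 subunits departed upward. Aebp2 had 20.6, 47.7, 19.1, 17.9 and 22.1 FPKM in the 5 anti-CXCL10 libraries, and Jarid2 had 5.18, 8.38, 4.10, 4.00 and 4.46 FPKM in the same libraries. Replicate 2 held the highest value of both. In that library 10.1% of all genes tested exceeded 1.5 times their median, against 2.88% to 4.03% in the other anti-CXCL10 libraries, so many other genes stood high there too. Jarid2 was also high in replicate 2 of control antibody (7.25 FPKM, with 3.43, 3.60 and 4.17 in the other 3). Aebp2 was high in replicate 5 of control antibody (36.0 FPKM, with 25.8, 23.1 and 20.8 in the others), a library with 3.39% of genes above 1.5 times their median. Outside replicate 2 of anti-CXCL10, the libraries high in Jarid2 and in Aebp2 were thus different ones.

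Over the 19 libraries, as deviations from the group means, the 36 pairs of subunits had a median Pearson's r of 0.13 (-0.47 for Aebp2 with Phf1 to 0.67 for Ezh1 with Jarid2), and 24 of the pairs were above 0. These values are descriptions, since all genes of a library share its preparation and scaling. The subunit transcripts thus did not vary as one block, and Ezh1 with Jarid2, Eed with Aebp2 (0.51) and Ezh1 with Phf1 (0.49) came closest to varying together.

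Each of the 9 subunits was also compared with library scores for 4 marker lists (mitosis and replication, T cell, skeletal muscle and hepatocyte), 36 relations in all, and 0 passed adjustment. Ezh2 had the r closest to 0 with the mitosis and replication score (r = 0.01, permutation p = 0.958; rho = -0.08, permutation p = 0.735; adjusted p = 0.958 and 0.872; r = -0.04 without the 2 libraries farthest from the median score). Phf1 had the lowest r with that score (r = -0.66, permutation p = 0.00793, adjusted p = 0.285; rho = -0.66, permutation p = 0.00783, adjusted p = 0.141), and r was -0.51 without the same 2 libraries. Ezh1 came next (r = -0.51, permutation p = 0.0269, adjusted p = 0.386; rho = -0.59, permutation p = 0.0151, adjusted p = 0.179), and r was -0.43 without them. In both cases the libraries with more mitotic transcripts than their group mean were, on the whole, those with less of the subunit.

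**Figure D4:**
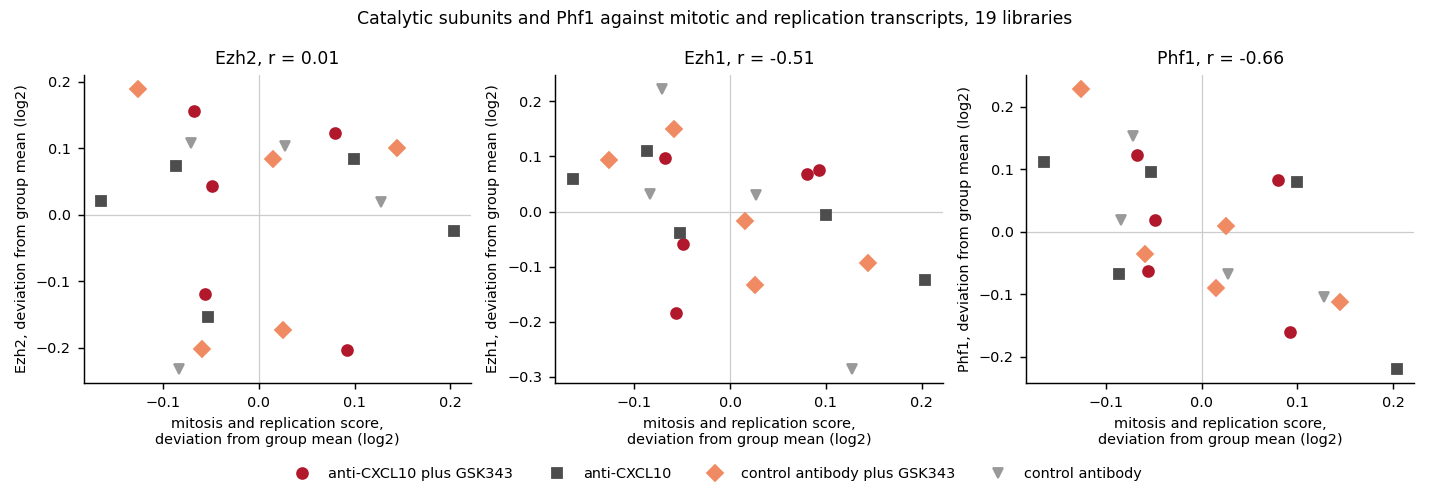
Deviation from the group mean of Ezh2, Ezh1 and Phf1 (vertical axes, log2(FPKM + 1)) against that of the mitosis and replication score (horizontal axes), one point per library in 4 groups. Ezh2 is scattered without slope (r = 0.01), and Ezh1 (r = -0.51) and Phf1 (r = -0.66) slope downward.

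The genes most like each catalytic subunit were ranked by Pearson's r of these deviations over the 19 libraries, among 8276 genes with a mean of at least 5 FPKM. For Ezh2 these were Ddx10 (r = 0.81), Bud13 (0.78), Atp6v0a1 (0.76), Zc3h13 (0.76), Arfip1 (0.74), Rala (0.72), Aplf (0.71) and Zmynd8 (0.71). For Ezh1 these were Mfn1 (0.81), Ms4a4a (0.81), Rrbp1 (0.81), Zscan26 (0.79), Smek2 (0.79), Fnbp4 (0.77), Bcl2l11 (0.76) and Mcfd2 (0.76). The lists share no gene, but lists this short from 8276 genes would seldom share one in any case. Above an r of 0.7 lay 5 genes for Suz12, 9 for Ezh2, 12 for Phf1, 15 for Rbbp7 and 25 for Ezh1. Eed had 79 such genes, Mtf2 80, Jarid2 86 and Aebp2 379. The largest Aebp2 deviation was 0.98, in replicate 2 of anti-CXCL10, and the next was 0.46, in replicate 5 of control antibody. Many other genes also stood high in replicate 2 of anti-CXCL10, and the part of that library in the Aebp2 count was not tested.

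Around PRC2, 88 genes of 8 related lists were examined, of which 82 were tested. In the GSK343 comparisons with control antibody and with anti-CXCL10, in the interaction, and for anti-CXCL10 without GSK343, 0 of the 82 passed in limma, with 11, 1, 8 and 10 at an unadjusted p under 0.05. The shares of all genes at that level were 18.9%, 2.91%, 12.9% and 6.81% in these comparisons. Between the groups that both received GSK343, 3 of 82 passed (3.66%, where 10.1% of all genes did), 2 higher and 1 lower with anti-CXCL10. Bmi1, the PRC1 subunit that activates its ubiquitin ligase, rose to 15.6 ± 2.77 FPKM with anti-CXCL10 plus GSK343, against 10.2 ± 3.31 with control antibody plus GSK343 (0.61 ± 0.18, adjusted p = 0.0443). L3mbtl2, of a variant PRC1, rose to 3.70 ± 0.704 FPKM with anti-CXCL10 plus GSK343, against 2.56 ± 0.452 with control antibody plus GSK343 (0.40 ± 0.11, adjusted p = 0.0267). Brd9, a bromodomain subunit of a BAF chromatin remodelling complex, fell to 9.48 ± 0.732 FPKM with anti-CXCL10 plus GSK343, against 11.6 ± 0.483 with control antibody plus GSK343 (-0.27 ± 0.07, adjusted p = 0.0173). The Bmi1 call held in 13 of 29 alternatives, that of L3mbtl2 in 23 of 28 and that of Brd9 in 26 of 29. Leaving out single libraries ended the L3mbtl2 call without replicate 1 or 4 of anti-CXCL10 plus GSK343 or replicate 2 of control antibody plus GSK343 (adjusted p = 0.0684, 0.0514 and 0.0732). The Bmi1 call ended without any of 13 of the 19 libraries (replicates 1, 2, 3 and 5 of anti-CXCL10 plus GSK343, 1 and 5 of anti-CXCL10, 1, 2 and 5 of control antibody plus GSK343, and all 4 of control antibody), with an adjusted p of up to 0.109. With the skeletal muscle score as a covariate, the differences were at least as large but did not pass: 0.74 for Bmi1 (adjusted p = 0.104), 0.43 for L3mbtl2 (0.110) and -0.31 for Brd9 (0.0709). Other marker lists moved with this comparison as given above, and their part in these calls was not tested.

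PRC1, the complex that recognizes the PRC2 mark and ubiquitinates histone H2A, had 22 tested genes. With control antibody, their median change with GSK343 was -0.15 beside -0.03 for all genes, and 7 of the 22 had an unadjusted p under 0.05, where 18.9% of all genes did. With anti-CXCL10 the median of the same 22 was -0.01 beside 0.01 for all genes, and 1 had an unadjusted p under 0.05, where 2.91% of all genes did. With control antibody, those of smallest p were Pcgf6 (-0.30 ± 0.09, adjusted p = 0.0692), Phc2 (-0.34 ± 0.12), Bmi1 (-0.53 ± 0.20) and Yaf2 (-0.21 ± 0.08). The enzymes that act on the same lysine did not pass either: the demethylases Kdm6b and Kdm6a differed by -0.12 ± 0.17 and -0.09 ± 0.13, and the acetyltransferases Ep300 and Crebbp by -0.19 ± 0.16 and -0.01 ± 0.12. Rbbp4, the alternative to Rbbp7, differed by -0.06 ± 0.06, and Lcorl, of a PRC2.1 form, by -0.44 ± 0.23. The lists for the PR-DUB deubiquitinase (10 tested), MLL COMPASS methyltransferases (13), BAF remodellers (17) and the E2F and RB family (13) had 0, 2, 2 and 0 genes at an unadjusted p under 0.05 in that comparison. The lowest p among them was that of Ash2l, a COMPASS core subunit (-0.34 ± 0.11, adjusted p = 0.101).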

How the data were processed

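Poly-A RNA-seq values of 19 tumor libraries were used. The deposited values are FPKM, made by the authors; the header names no unit, and FPKM was inferred from the values. The submitters' processing notes name the builds GRCm38 and mm10 and the tools StringTie 1.3.3b, HTSeq 0.6.0, HISAT2 2.1.0, TopHat2 2.1.0 and Trimmomatic 0.33; what each did, and the strand setting, are not given in the sources used here. FPKM summed to 533606 to 629679 per library. Depth is unknown, so no counting error can be given. Coordinates are those of the deposited table. Per the labels, sample-sheet numbers run from 1 to 10 over both control antibody groups and again over both anti-CXCL10 groups, so the antibody and that numbering cannot be told apart.

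The 14646 rows were reduced to 14633 genes by adding rows of the same ID (8 IDs, 21 rows); the 14385 genes that reached 1 FPKM in 5 or more libraries entered the test, leaving out 248. The fit was limma 3.58.1 (R 4.3.3) with trend and robust moderation on log2(FPKM + 1), in a model of the 4 group means over 19 libraries, two-sided, with Benjamini-Hochberg adjustment over all 14385 genes; every adjusted p of a gene is from it. On simulated data for GSK343 with control antibody (200 of 14385 genes changed), it recovered 0% of changes of 0.25, 31.5% of 0.5, 82.5% of 1 and 93% of 2 on the log2 scale. Correlations were permuted within groups, 100000 times, two-sided. Sequence copies were found with blastn 2.17.0 at 95% identity or more over at least 200 bases. A library score averages log2(FPKM + 1) over the genes of a list.

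All subunits were named, from each related list at most 4 genes by smallest p in a comparison, and 8 genes most like Ezh2 and Ezh1. Members and lists were chosen with earlier results of these data known. Alternatives were another pseudocount, filter, scaling, variance model, set of groups, the replicate block, a muscle covariate, and leaving out libraries.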

Additional observations from a re-analysis of the deposited data

Results flagged for a closer look

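Within each group of 4 or 5 libraries, the highest and the lowest value were checked for a gap to the others that is large for the range of the group (Dixon's test). Of 40 groups tested, over the 9 subunits and the ratio of Ezh2 to Ezh1, 6 were singled out, where chance gives about 1 in 20. Eed was highest in replicate 5 of anti-CXCL10 plus GSK343 (24.1 FPKM, others 20.2 to 21.3), and so was Aebp2 (29.3 FPKM, others 20.5 to 22.1). The ratio of Ezh2 to Ezh1 was lowest in the same library (1.74, others 2.21 to 2.29). Suz12 was lowest in replicate 3 of anti-CXCL10 plus GSK343 (8.41 FPKM, others 22.9 to 28.8). In replicate 2 of anti-CXCL10, Jarid2 (8.38 FPKM, others 4.00 to 5.18) and Aebp2 (47.7 FPKM, others 17.9 to 22.1) were highest. No group receiving the control antibody was singled out.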

How the results depend on the processing

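The count of 0 subunits past the threshold was the same for 143 of 145 values over the 5 comparisons and 29 alternatives. The exceptions, both for anti-CXCL10 with GSK343, were 1 subunit (Phf1) under median-ratio scaling and a range of 0 to 1 when each library was left out, the 1 again being Phf1 without replicate 5 of anti-CXCL10. For GSK343 with anti-CXCL10, the interaction and anti-CXCL10 without GSK343, the main fit called only 0, 9 and 2 of all genes. A steady count of 0 subunits in those comparisons therefore says little. Of 1305 single changes, 2 passed and 1257 kept their sign. Leaving out single libraries moved Suz12 from 0.07 to 0.64 for GSK343 with anti-CXCL10, from 0.23 to 0.81 in the interaction and from -0.80 to -0.35 for anti-CXCL10 without GSK343. Counts over all genes moved more. A fit of the compared groups alone gave 233 genes for GSK343 with control antibody (787 with all groups) and 1 for anti-CXCL10 without GSK343. Leaving out replicates 3, 4 and 5 of control antibody plus GSK343 kept only replicates 1 and 2 of that group. The counts were then 14 for GSK343 with control antibody and 1 for the interaction. For anti-CXCL10 they were 0 without GSK343 and 478 with GSK343 (1456 with all libraries). With the skeletal muscle score as a covariate they were 21 for GSK343 with control antibody, 0 for the interaction and 119 for anti-CXCL10 with GSK343. Leaving out each library gave 299 to 1382 genes for GSK343 with control antibody, 0 to 1 for GSK343 with anti-CXCL10, 0 to 472 for the interaction, 0 to 2 for anti-CXCL10 without GSK343 and 843 to 1822 for anti-CXCL10 with GSK343. The lowest count for GSK343 with control antibody came without control antibody replicate 1, and the highest without replicate 1 of control antibody plus GSK343, as did the 472. The cause of these shifts was not tested. The labels do not say what a replicate number shares, and correlations of deviations exceeded 0.1 in 12 of 27 same-numbered pairs (-0.199 to 0.318), so the numbers were not taken as pairing the samples; as a block they gave 57 genes in the interaction (9 without the block), 0 for anti-CXCL10 without GSK343, and 0 subunits in each comparison. Correlations of subunits with scores past adjustment stayed at 0 throughout. In the simulation of GSK343 with control antibody, 0% of changes of 0.25 on the log2 scale were recovered after adjustment. The Ezh2 change in that comparison (-0.22) was of about this size. However, the simulation changed 200 genes by a single size, whereas 787 genes passed in the data, which makes the adjusted threshold less strict. Recovery was also taken over genes of any spread. The 0% therefore does not say how often a change like that of Ezh2 would be found here. Other comparisons were not simulated. For anti-CXCL10 with GSK343, where more genes passed, a change of -0.27 passed in the main fit for Brd9 and not for Phf1.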
